A study of Homo sapiens with 4 samples.

Results

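The golgin coiled-coil family was described in RNA-seq of HCT116 cells, a human colorectal cancer line, transfected with an antisense oligonucleotide (ASO) against GAA repeats or with a control ASO. The 10 members were taken by gene symbol: GOLGA1, GOLGA2, GOLGA3, GOLGA4, GOLGA5, GCC1, GCC2, TRIP11, TMF1 and USO1. They are 10 of the 63677 genes counted, and all 10 were among the 15116 genes with enough counts to be tested. The study asked whether RNAs bound by ORC1, a subunit of the origin recognition complex, matter for the start of DNA replication. It found GAA repeats in many of these RNAs, and the anti-GAA ASO was designed to pair with 7 tandem GAA copies (21 nt). There were 2 libraries of each ASO, with replicate numbers 1 and 2 in both groups, and no untreated library is analysed here. The labels give a transfection of 48 h and a total RNA kit, whereas the study's methods describe a shorter transfection and a kit for mRNA. Both groups were the same unedited line, and the labels do not say whether the libraries came from separate cultures, so p-values measure only the spread between these samples.

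Golgins are long coiled-coil proteins that stand out from the Golgi membrane, each held there at one end, and capture incoming transport vesicles or link neighbouring cisternae. Small GTPases of the ARL, ARF and RAB families recruit or bind many of them. Coiled coils are rich in glutamate and lysine, and the codons GAA and AAG for these residues are the ones a tandem GAA repeat yields when reading starts at G or at the A that follows it.

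Glutamate and lysine codons (GAA, GAG, AAA and AAG) made up 16.4% (USO1) to 29.3% (GOLGA4) of the coding sequence of the members, with a median of 21.3% against 12.8% over 12177 tested genes. The longest perfect GAA run, searched for on the sense strand of the Ensembl canonical transcript without regard to frame, was 16 nt in USO1, 11 nt in TMF1, GOLGA2 and GOLGA4, 9 nt in GOLGA1, GOLGA3, GOLGA5 and TRIP11, and 8 nt in GCC1 and GCC2. The median was 9 nt for the members and 7 nt for all tested genes with a transcript. In canonical transcripts a run of 12 nt or more, found in 2.55% of the tested genes, occurred in USO1 alone among the members. Windows of 30 nt around the run of the 3 members with the lowest log2 fold change (USO1, TMF1 and TRIP11) and of 3 members whose log2 fold change was nearer to 0 or above it (GOLGA4, GOLGA2 and GOLGA3) are printed 5′ to 3′ from GENCODE 44 transcripts, with the run in capitals.
USO1: atctaatGAAGAAGAAGAAGAAGtagaaga
TMF1: acaacgaccAGAAGAAGAAGtgaaaagcag
TRIP11: gattcaccagGAAGAAGAAaaagagataca
GOLGA4: tggaaatgaAAGAAGAAGAAattgctcaac
GOLGA2: ggagcgaaaAAGAAGAAGAAaataaaaaat
GOLGA3: tcatgttattGAAGAAGAAcctacttatta

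The USO1 run lay in coding exon 4 of 24 at chr4:75757555-75757570 (GRCh38, plus strand) and was read as GAA glutamate codons. It was present in both protein-coding transcripts of the gene. Further coding runs of 9 and 10 nt lay in exons 15 and 17. The TMF1 run was in coding exon 2 of 17 at chr3:69048320-69048330 (minus strand), also in the GAA frame. A further run of 9 nt lay in coding exon 8 and another of 10 nt in the 3′ UTR. In TRIP11 the run was in coding exon 20 of 21 at chr14:91972750-91972758 (minus strand) and was read as AGA, an arginine codon. The GOLGA4 run was in coding exon 10 of 24 at chr3:37302237-37302247 (plus strand) in the GAA frame, beside 4 further coding runs of 9 nt. In GOLGA2 it was in coding exon 2 of 27 at chr9:128273911-128273921 (minus strand), read as AAG lysine codons. A further coding run of 9 nt crossed the junction of exons 9 and 10. Of the 6 printed runs only that of GOLGA3 was outside coding sequence, in the 3′ UTR at chr12:132772215-132772223 (minus strand). Thus the longest runs of TMF1, GOLGA4 and GOLGA2 had the same length in the coding sequence of the canonical transcript. The annotated isoforms differed in carrying them. The run was present in 3 of 3 protein-coding transcripts of TMF1, 9 of 11 of GOLGA4 and 10 of 15 of GOLGA2. For TRIP11 this was 2 of 3 and for GOLGA3 4 of 26. Which isoforms the cells expressed was not tested.

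The same transcripts were also compared with the whole 21 nt target, allowing mismatches. The best matches are printed for the 4 members with at least 17 of 21 matching bases, with matching bases in capitals and mismatches in lower case.
USO1: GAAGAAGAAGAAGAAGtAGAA
TMF1: GAAaAAGcAGAAGAgGcAGAA
GOLGA3: GAAGgAGAAGgAGAAGgtGAA
GOLGA2: GAAaAAGAAGAAGAAaAtaAA
USO1 matched at 20 of 21 bases across the junction of exons 4 and 5 of its canonical transcript and at 19 in its longest transcript, where another exon follows. TMF1 (chr3:69023258-69023278, exon 17), GOLGA3 (chr12:132780814-132780834, exon 18) and GOLGA2 matched at 17, GOLGA4 and TRIP11 at 16, GOLGA5, GCC1 and GCC2 at 15 and GOLGA1 at 14. A match is a property of the sequence, and binding of the ASO was not measured in these libraries.

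**Figure D1:**
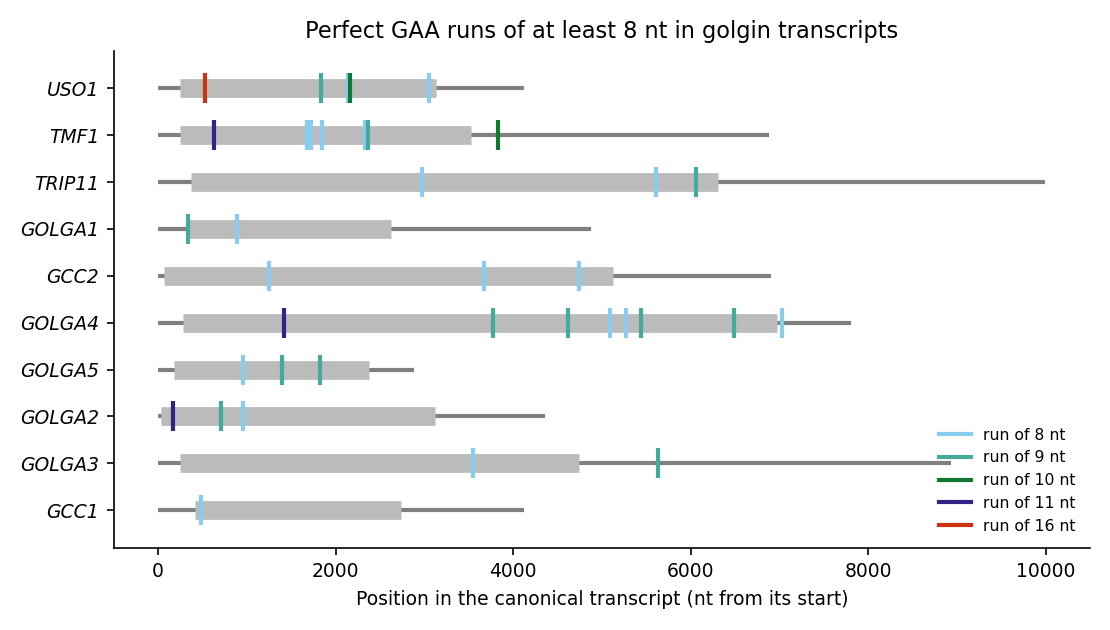
Position of GAA runs of 8 nt or more along the canonical transcript of each golgin, with distance from the transcript start on the horizontal axis and the coding part marked. GOLGA4 held 8 such runs, TMF1 7 and USO1 5, and the longest (16 nt) was near the start of the USO1 coding sequence.

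The comparison of anti-GAA with control ASO showed the lowest levels, relative to control, for USO1, TMF1 and TRIP11, while GOLGA2, GOLGA3 and GCC1 were level with the control or above it. By edgeR's quasi-likelihood test with Benjamini-Hochberg adjustment over all tested genes, none of the 10 members passed an adjusted p of 0.05 when the group was the only term, as was the case for all genes (0% called lower and 0% called higher). At an unadjusted p under 0.05, 3 of the 10 (USO1, TMF1 and TRIP11) were lower and 0 higher, against 3.46% of all tested genes lower and 1.02% higher. DESeq2 without the replicate number also called 0 members (0.0331% of all genes lower and 0% higher), and the same cut on its unadjusted p left 3 of them lower and 0 higher, against 2.1% and 0.662% of all genes in that fit. With the replicate number as a block, which compares the libraries by pair, 2 of the 10 (USO1 and TMF1) were called lower and 0 higher, against 1.37% of all genes called lower and 0.337% called higher. DESeq2 with the block called 1 member lower (USO1) and 0 higher, against 0.298% and 0.086% of all genes. At the unadjusted level the edgeR fit with the block had 4 members lower and 0 higher, against 9.7% and 6.86% of all genes.

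The log2 fold change was below 0 for 7 of the 10 members (48.4% of all tested genes), with a median of −0.31 against 0.01 for all genes. Both anti-GAA libraries lay below both control libraries in 5 members (16.9% of all genes) and above both in 1, GOLGA3 (15.5% of all genes). The sum of the 10 members was 283 and 219 CPM (counts scaled to library size with TMM factors) with anti-GAA and 291 and 275 CPM with control. Without USO1, TMF1 and TRIP11, chosen here after their values were seen, the other 7 members had a median of −0.01 with 4 below 0. Since these were bulk samples, fewer cells expressing a gene and less RNA per cell cannot be told apart.

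**Figure D2:**
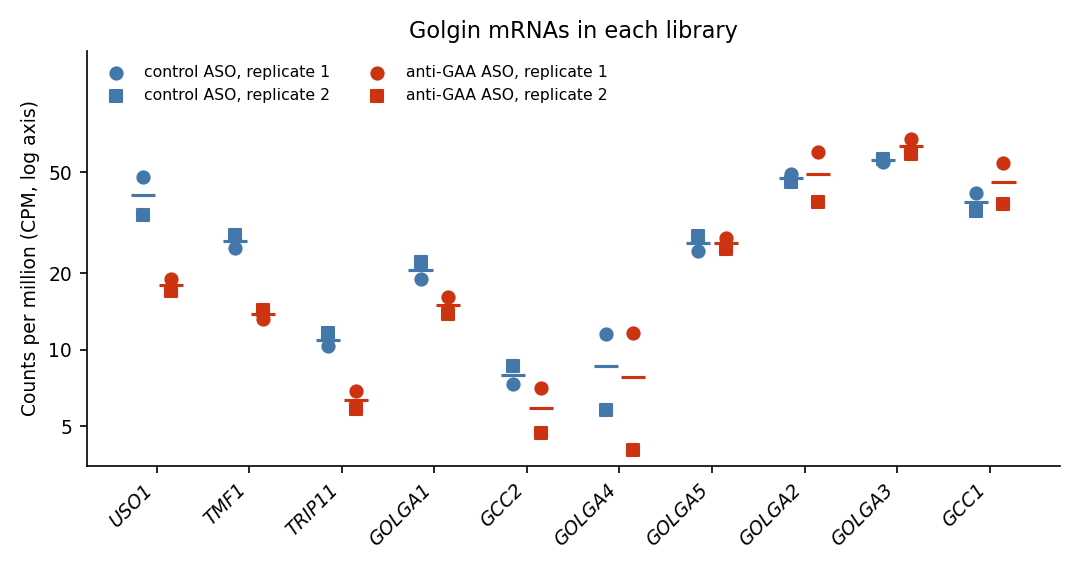
CPM of each golgin in the 4 libraries, on a log axis, with anti-GAA and control libraries as separate colours and replicate numbers as separate symbols. USO1 was at 18.99 and 16.97 CPM with anti-GAA and 47.7 and 33.8 CPM with control, and the groups overlapped in GOLGA2, GOLGA4, GOLGA5 and GCC1.

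Among the golgins of the cis side, which receives vesicles from the endoplasmic reticulum, USO1 (p115) encodes a tether that binds GOLGA2 and RAB1. USO1 had 18.99 and 16.97 CPM in anti-GAA replicates 1 and 2 (188 and 302 counts) and 47.7 and 33.8 CPM in control replicates 1 and 2 (731 and 573 counts). Both anti-GAA libraries were below both controls, and the mean was 44.2% of the control mean (39.8% in pair 1 and 50.2% in pair 2). Its log2 fold change was −1.18 (SE 0.25, edgeR adjusted p = 0.671), and −1.16 (SE 0.16, edgeR adjusted p = 0.00547) with the replicate block. The control libraries themselves differed 1.41-fold, less than the 2.26-fold difference between the group means.

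TRIP11 (GMAP-210) encodes a cis-Golgi golgin that senses curved membrane and captures vesicles. TRIP11 had 6.87 and 5.84 CPM with anti-GAA (68 and 104 counts) and 10.3 and 11.6 CPM with control (158 and 197 counts). The groups did not overlap, with 58.0% of the control mean left. The log2 fold change of −0.79 (SE 0.28, edgeR adjusted p = 0.996) had an unadjusted p of 0.0249, and with the block it was −0.80 (SE 0.22, edgeR adjusted p = 0.0853), which missed the threshold in both fits.

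GOLGA2 (GM130) encodes the cis-Golgi matrix protein to which USO1 docks. GOLGA2 was at 60.1 and 38.1 CPM with anti-GAA and at 49.3 and 45.6 CPM with control. The control values lay between the anti-GAA values, and the pairs differed in sign (0.29 in pair 1 and −0.26 in pair 2 on the log2 scale). Its log2 fold change was 0.05 (SE 0.26, edgeR adjusted p = 0.996).

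Of the golgins with a RAB-binding or membrane-spanning end, TMF1 encodes a RAB6-binding golgin first described as a transcription modulator. TMF1 had 13.2 and 14.3 CPM with anti-GAA (131 and 254 counts) and 25.1 and 28.2 CPM with control (385 and 478 counts). The anti-GAA libraries were below both controls, at 52.7% of control in pair 1 and 50.6% in pair 2, the closest agreement between pairs among the 3 lowest members. The log2 fold change was −0.95 (SE 0.22, edgeR adjusted p = 0.698), and −0.95 (SE 0.17, edgeR adjusted p = 0.0114) with the replicate block. In DESeq2 with the block TMF1 missed the threshold (adjusted p = 0.0635).

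GOLGA5 (golgin-84) encodes a golgin anchored by a transmembrane segment. GOLGA5 had 27.6 and 24.8 CPM with anti-GAA and 24.5 and 28.1 CPM with control, with overlapping groups and a log2 fold change of −0.01 (SE 0.21, edgeR adjusted p = 0.997) whose sign changed under other scalings. GOLGA3 (golgin-160) encodes a peripheral golgin that caspases cleave in apoptosis. GOLGA3 had 67.3 and 59.0 CPM with anti-GAA and 54.6 and 56.4 CPM with control, so both anti-GAA libraries were above both controls, although the log2 fold change of 0.18 (SE 0.20, edgeR adjusted p = 0.996) was within its SE.

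The 4 remaining members carry a GRIP domain, which places them on the trans-Golgi network, where cargo is sorted. GOLGA1 (golgin-97), a tether for vesicles from endosomes, had 16.2 and 13.8 CPM with anti-GAA and 18.98 and 22.2 CPM with control. Its groups did not overlap, with a log2 fold change of −0.46 (SE 0.23, edgeR adjusted p = 0.996) and, with the block, −0.47 (SE 0.18, edgeR adjusted p = 0.213). GCC2 (GCC185) had 7.07 and 4.72 CPM with anti-GAA and 7.30 and 8.61 CPM with control. The groups were separate by only a small margin in replicate 1, and the difference was −0.05 in pair 1 and −0.85 in pair 2 on the log2 scale. Its log2 fold change of −0.45 (SE 0.33, edgeR adjusted p = 0.996) was not significant with the block either (edgeR adjusted p = 0.378).

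GOLGA4 (golgin-245), the member richest in glutamate and lysine codons, varied more between replicates than between groups. GOLGA4 had 11.6 and 4.05 CPM with anti-GAA and 11.5 and 5.78 CPM with control. Both replicate 2 libraries were low, with a 2.00-fold difference between the controls and a 2.87-fold difference between the anti-GAA libraries. Its log2 fold change was −0.17 (SE 0.55, edgeR adjusted p = 0.996), with 0.01 in pair 1 and −0.50 in pair 2. GCC1 (GCC88), whose longest run of 8 nt equals that of GCC2 and which held only 1 run of 8 nt or more, had 54.3 and 37.3 CPM with anti-GAA and 41.3 and 35.1 CPM with control, and a log2 fold change of 0.26 (SE 0.25, edgeR adjusted p = 0.996).

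**Figure D3:**
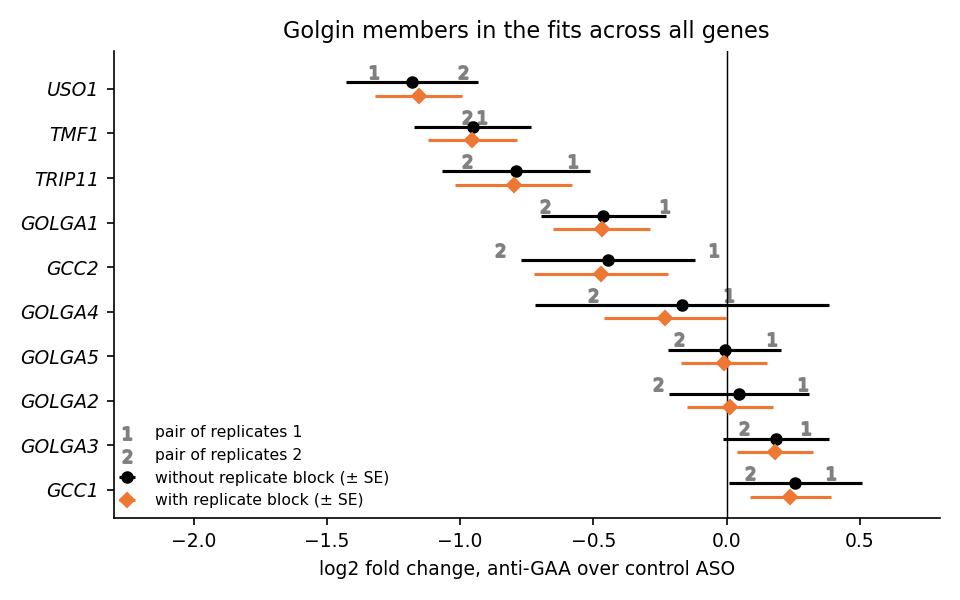
Log2 fold change (anti-GAA over control ASO) of each golgin with its SE, without (black) and with (orange) the replicate number as a block, and the difference within each pair as grey numerals. USO1 and TMF1 are lowest in both fits, and the pairs lie on opposite sides of 0 for GOLGA2, GOLGA4 and GOLGA5.

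The pairs differed in how many members were lower. In pair 1, 5 members were below 0 with a median of −0.02, and in pair 2, 8 members were below 0 with a median of −0.59, whereas the medians of all genes were 0.00 and 0.02. Lower values in both pairs were found for 5 members (30% of all genes) and higher values in both for 2, GOLGA3 and GCC1 (31.8% of all genes). The difference between pairs was not tested. Leaving out a library moved the family median from −0.05 (without anti-GAA replicate 2) to −0.66 (without anti-GAA replicate 1), so that its size rested on which anti-GAA library was used.

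Relative levels within the family were compared as CPM per kb of the canonical transcript. In the control libraries the mean (± SD, n = 2) was 10.9 ± 0.602 for GOLGA2, 9.88 ± 2.38 for USO1, 9.26 ± 1.05 for GCC1 and 9.13 ± 0.872 for GOLGA5, and neighbours among these 4 overlapped. GOLGA3 followed at 6.21 ± 0.137, then GOLGA1 (4.22 ± 0.464) and TMF1 (3.87 ± 0.317), which overlapped with each other. GCC2 (1.15 ± 0.134), GOLGA4 (1.11 ± 0.522) and TRIP11 (1.10 ± 0.0930) formed the lowest group without a separation between them. With anti-GAA the level of USO1 was 4.36 ± 0.347 CPM per kb, placing it at rank 5 rather than 2. The highest means were then those of GOLGA2 (11.3 ± 3.57) and GCC1 (11.1 ± 2.90) and the lowest that of TRIP11 (0.636 ± 0.0725). Within anti-GAA replicate 2, GCC1 was above GOLGA2 and GOLGA4 below TRIP11. The order depended on the length used. Per kb of all annotated exons together, control replicates 1 and 2 had 10.4 and 7.34 CPM for USO1 and 4.47 and 4.13 CPM for GOLGA2. GCC1 (8.31 and 7.08) and GOLGA5 (7.65 and 8.76) then also lay above GOLGA2.

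The members were next set beside all tested genes with runs of the same length. Genes with a canonical run of 16 nt or more (58 genes) had a median log2 fold change of −0.40 with 89.7% below 0, and 4 of the 99 genes with 15 nt or more were lower than USO1. Among the 404 genes with a run of 11 nt, whose median was −0.08, 5.20% were lower than TMF1, 38.4% lower than GOLGA4 and 65.3% lower than GOLGA2. Among the 1534 genes with 9 nt (median −0.03), 5.28% were lower than TRIP11, 13.5% lower than GOLGA1, 54.2% lower than GOLGA5 and 80.1% lower than GOLGA3. Of the 3333 genes with 8 nt (median −0.01), 11.97% were lower than GCC2 and 84.5% lower than GCC1. Point estimates of members with the same run length were thus spread across their class. Whether that spread exceeded the noise was not tested, and the SE was 0.55 for GOLGA4 and 0.26 for GOLGA2. The class of USO1 had the lowest median of those that held a member. With introns searched too, runs of 12 nt or more occurred in 1668 tested genes (median −0.14, 68.5% below 0). These included USO1 and, through an intronic run of 13 nt, GOLGA1 but no other member.

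**Figure D4:**
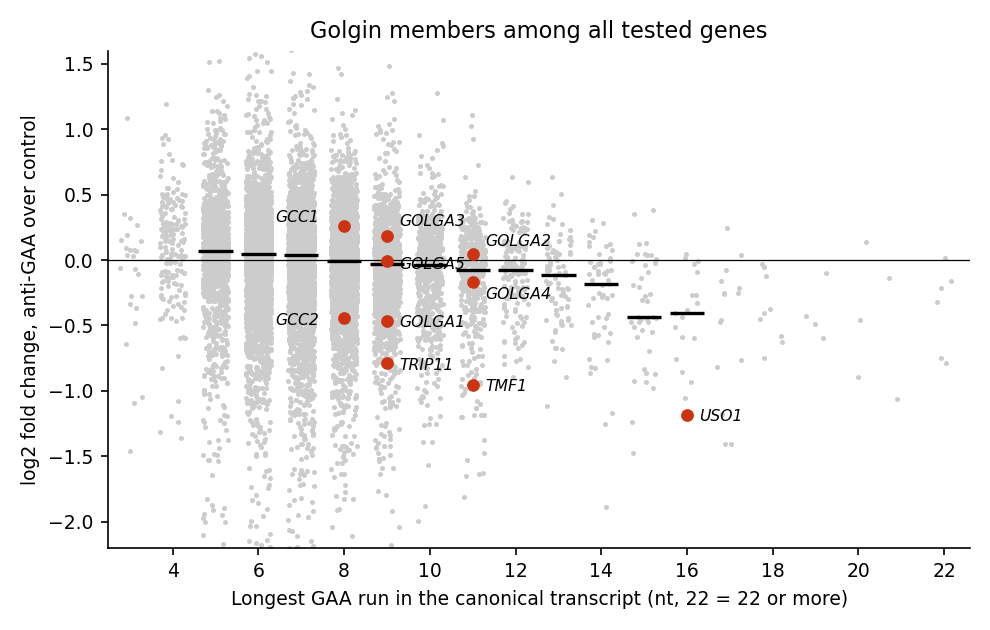
Log2 fold change against the longest GAA run of the canonical transcript for all tested genes (grey), the median of each run length (bars) and the golgins (red). The 3 golgins with an 11 nt run range from TMF1 at −0.95 to GOLGA2 at 0.05. Genes beyond the vertical limits are not drawn.

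Codon content and run length were also crossed. Tested genes with at least 20% glutamate and lysine codons had a median of −0.05 (929 genes, 58.2% below 0). Those with such codon content and a run under 9 nt had a median of −0.00 (493 genes, 50.3% below 0), and those with a run of 9 nt or more had −0.12 (436 genes, 67.2% below 0). The latter class held GOLGA4, TMF1, GOLGA1 and TRIP11, all 4 below 0, and the former held GCC2, below 0, and GCC1, above 0. Genes with under 20% of these codons but a run of 9 nt or more had a median of −0.04 (2303 genes, 56.9% below 0). They included USO1, GOLGA2, GOLGA3 and GOLGA5, of which 2 were below 0. USO1 had the lowest share of these codons in the family.

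Over the 10 members, Spearman's rho with the log2 fold change was −0.49 for the longest run of the canonical transcript and 0.49 for mean log2 CPM. It was −0.68 for GAAGAA copies per kb of the longest transcript and 0.77 for GC content. For the share of glutamate and lysine codons and for transcript length it was −0.14 each. These are descriptions of 10 genes that share the same 4 libraries, and GC content and GAA content are linked by base composition. The 3 members above 0 had the highest GC content (GOLGA2 54.8%, GOLGA3 54.5% and GCC1 53.0%), and the others ranged from 36.1% (TMF1) to 47.8% (GOLGA1). With offsets for transcript length and GC content the log2 fold changes were −1.15 for USO1, −0.84 for TMF1 and −0.66 for TRIP11. The family median was −0.20. At an unadjusted p under 0.05, edgeR with these offsets had 2 members lower, against 3 without them. Over all 15116 tested genes the numbers lower were 506 and 523. With the block and offsets TRIP11 had an edgeR adjusted p of 0.133.

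The rest of the Golgi machinery was examined in lists taken by function. Of 14 other golgins and matrix proteins, 10 were below 0 (48.4% of all genes) with a median of −0.10. None was called without the block by edgeR or DESeq2, and 3 were lower at an unadjusted p under 0.05 in edgeR (3.46% of all genes). With the block edgeR called 2 lower (1.37% of all genes), the block with length and GC offsets left 1 of them (GORAB), and DESeq2 with the block called 0. GOLGB1 (giantin), the largest golgin, had 11.7 and 10.2 CPM with anti-GAA and 15.8 and 26.5 CPM with control, with a run of 11 nt. Its groups did not overlap, although the controls were far apart, and its log2 fold change was −0.95 (SE 0.31, edgeR adjusted p = 0.996), or −0.94 (SE 0.22, edgeR adjusted p = 0.0482) with the block, a call lost in DESeq2 with the block (adjusted p = 0.298) and with block and offsets (edgeR adjusted p = 0.0536). GORAB, a RAB6-binding Golgi protein, had 5.76 and 5.90 CPM with anti-GAA and 11.9 and 10.7 CPM with control, with a longest run of 7 nt, and its log2 fold change was −0.96 (SE 0.27, edgeR adjusted p = 0.922), or −0.95 (SE 0.22, edgeR adjusted p = 0.0415) with the block and past the threshold with block and offsets, but not in DESeq2 with the block (adjusted p = 0.399).

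Among the small GTPases that recruit or bind golgins, 8 of 16 tested were below 0 with a median of 0.01. The subunits of the COG and GARP tethers, which work beside golgins in vesicle capture, had 6 of 12 below 0 and a median of −0.02. The Golgi SNAREs, which fuse the captured vesicles, had 5 of 12 below 0 (median 0.10), and the COPI coat had 3 of 9 below 0 (median 0.17). Golgi enzymes and cargo proteins without long coiled coils had 7 of 11 below 0 (median −0.02). None of these 5 lists had a member called by edgeR or DESeq2 with or without the block. At an unadjusted p under 0.05 without the block, edgeR had 1 member lower, in the COPI list (3.46% of all genes). That gene had low counts, 1 and 4 with anti-GAA and 10 and 11 with control. DESeq2 without the block had 0 lower (2.1% of all genes). With the block, edgeR at the same cut had 2 lower in Golgi enzymes and cargo and 1 lower in each other list (9.7% of all genes). It had 1 higher in COG and GARP and 1 higher in COPI (6.86% of all genes). The order of the list medians rested on the libraries used. Without anti-GAA replicate 2 the golgin median was −0.05, against −0.26 for Golgi enzymes and cargo, −0.19 for the other golgins and matrix proteins, −0.12 for the small GTPases and −0.04 for COPI. Without anti-GAA replicate 1 it was −0.66, and the COPI median was 0.43.

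**Figure D5:**
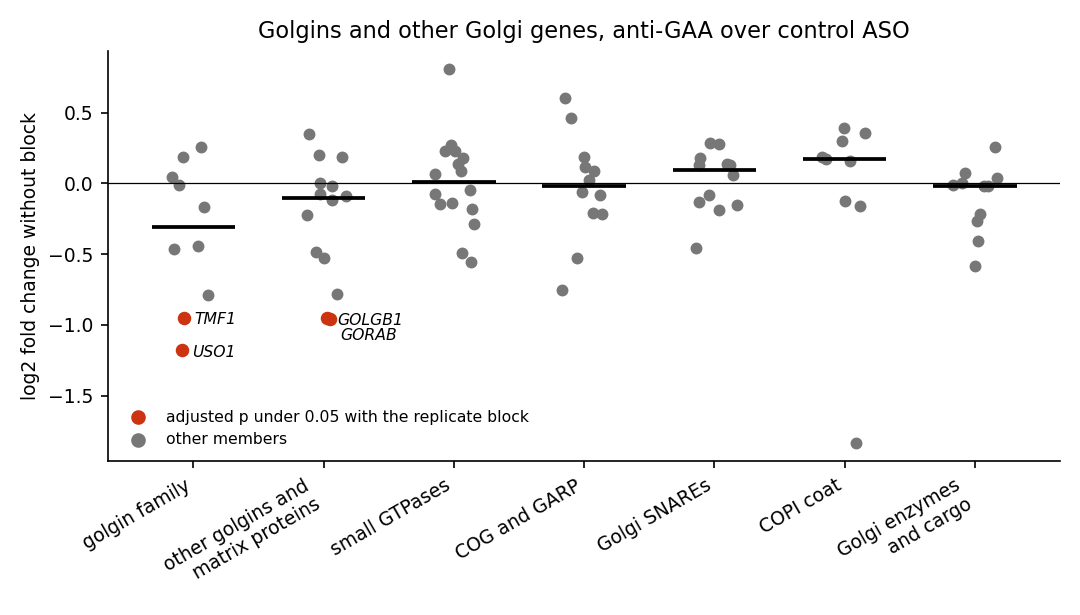
Log2 fold change of every tested gene in the golgin family and in 6 other Golgi lists, with the median of each list as a bar and genes called with the replicate block in red. The golgin median is −0.31, and the medians of the other lists lie between −0.10 and 0.17 with all 4 libraries, an order that changed without anti-GAA replicate 2.

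The labelled cell type was checked against epithelial markers. EPCAM, KRT8, KRT18, KRT19 and CDH1 were all expressed, and PTPRC, PECAM1, COL1A2 and ALB were each under 1 CPM, while COL1A1 was detected in both groups (log2 fold change −0.19). The epithelial genes KRT18 (−0.54), CDH1 (−0.40), KRT8 (−0.27) and EPCAM (−0.21) were also below 0 and KRT19 (0.26) above it, none with an adjusted p under 0.05, and their part in the golgin values was not tested. Total counts ranged from 10538284 to 17894953, with the shallowest library being anti-GAA replicate 1.

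Some member counts are less certain because annotated exons of other genes lie over them and neither the strand setting nor the treatment of reads matching several genes is stated. In GENCODE 44, 886 nt of GOLGA1 exons are shared with SCAI on the same strand and 125 nt of GOLGA3 exons with CHFR. On the opposite strand, RPS11P5, a processed pseudogene, covers 484 nt of GOLGA3, and exons of ARF5 and FSCN3 cover 405 and 366 nt of GCC1, EOGT-DT covers 611 nt of TMF1, GOLGA4-AS1 432 nt of GOLGA4, GCC2-AS1 62 nt of GCC2 and G3BP2 13 nt of USO1. GENCODE 44 also lists 11 pseudogenes named after GOLGA2, and whether they share reads with it was not tested.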

How the data were processed

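RNA of HCT116 cells was sequenced in 2 anti-GAA ASO and 2 control ASO libraries. Per the study's methods, reads were trimmed (Trimmomatic), aligned to hg19 (STAR), freed of those on GL contigs and assigned to genes (featureCounts). The authors deposited unnormalized counts, and 0 columns of values per sample were left unused. Strand and multi-mapping settings are not given in the sources used here. The study's methods name DESeq2.

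Counts were tested in R 4.3.3 with edgeR 4.0.16 (filterByExpr, TMM, quasi-likelihood F-test, group as the only term, Benjamini-Hochberg over 15116 genes, threshold 0.05). Alternatives included DESeq2 1.42.0, the replicate number as a block, offsets for transcript length and GC content (mgcv 1.9.3), other scalings and filters, and leaving out each library. Offsets were smooth trends fitted per library. SE was the log2 fold change over the square root of F. Pair values subtract control from anti-GAA log2 CPM (prior count 2). Scripts were tested on simulated counts.

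Sequences came from GENCODE 44 on GRCh38, a newer build than that of the counts, so genes were matched by Ensembl identifier (52181 of 63677) and no position was carried over. A GAA run is the longest perfect GAA repeat on the sense strand, whatever its frame. The longest and the Ensembl canonical transcript were searched, and canonical runs are given because the longest transcripts of GOLGA2 and GCC2 are noncoding. The whole gene with its introns was also searched. Transcript length, GC content and GAAGAA copies per kb are those of the longest transcript.

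The members and lists were chosen with earlier results of these data known. All 10 members are named, together with GOLGB1 and those members of the other Golgi lists that were called by edgeR with or without the block. Total counts were 10538284 and 17894953 (anti-GAA replicates 1 and 2) and 15347298 and 15924742 (control replicates 1 and 2). The number of libraries limits precision.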

Additional observations from a re-analysis of the deposited data

How the results depend on the processing

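The labels give both groups the replicate numbers 1 and 2 without saying what a number marks. The sample titles also share the number 232 in replicate 1 and 234 in replicate 2 of both groups. Deviations of same-numbered libraries from their group means correlated at 0.56, which with 2 pairs is only a hint. With the replicate block, 207 genes were called lower and 51 higher, against 0 and 0 without it, and 2 golgins were called lower. The block with length and GC offsets gave 221 lower and 58 higher with 2 golgins lower, and DESeq2 with the block gave 45 lower and 13 higher with 1 golgin lower. Without a filter on low counts the numbers were 111 and 5, with 1 golgin lower, and DESeq2 without the block called 5 genes lower. Leaving out 1 library gave 0 to 16 genes lower and 0 to 3 higher, and 0 golgins. The cause of these differences was not tested.

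USO1 passed the threshold in 4 of 13 alternatives (log2 fold changes −1.16 with the block, −1.15 with DESeq2 and the block, −1.13 with the block and offsets, −1.19 without a filter) and TMF1 in 2 (−0.95 and −0.84, with the block and with the block and offsets). At an adjusted p under 0.1, 3 golgins were called lower with the block (2.91% of all genes), 2 by DESeq2 with the block (0.556%) and 0 without it by edgeR (0%) or DESeq2 (0.0794%). With 1 library left out, USO1 ranged from −1.40 to −0.92, TMF1 from −1.04 to −0.86 and TRIP11 from −0.90 to −0.67, and 5 to 9 members were below 0 with a median from −0.66 to −0.05. In those fits the lone library was assumed to vary like the other group.

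The sign changed for GOLGA2 (−0.055 with scaling to total counts, −0.31 to 0.34 with a library left out, negative without anti-GAA replicate 1), GOLGA4 (−1.09 to 0.43, positive without control replicate 1 or anti-GAA replicate 2), GCC1 (−0.027 to 0.51, negative without anti-GAA replicate 1) and GOLGA5 (0.00054 with DESeq2 size factors, 0.000439 with DESeq2, 0.000202 with DESeq2 and the block, −0.11 to 0.10 with a library left out, positive without replicate 2 of either group). A run of 9 nt or more was held by 7 members in the longest and 8 in the canonical transcript. Of 234 values of the other lists under the alternatives, 220 stayed within 1.5 times or the spread between pairs. Most lists had 0 genes called in every fit, and these values count among the 220. The spread between pairs was also a wide band. By the same rule the golgin medians of −0.66 and −0.05 with a library left out counted as unmoved.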
